A study of Danio rerio with 20 samples.

Results

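The genes described here are 10 zebrafish genes known from fasting and muscle wasting, namely igfbp1a, igfbp1b, trim63a, fbxo32, klhl38b, ppp1r27b, klf9, pdk2b, psme4a and calcoco1b. They were picked by symbol because they led the variation between October pools of one group, so their spread between October libraries is a description and not a finding. All 10 were found among the 32520 genes of the deposited count table, each with a single identifier, and all 10 were among the 23121 genes with enough counts to be tested. RNA came from entire larvae of wild-type zebrafish aged 5 days after fertilisation. In the groups SEC JUN20 and SEC OCT20 the larvae had spent their last day (4 to 5 days) with secondary effluent extract of a wastewater plant in the water, labelled 20x, from the June or the October sampling campaign. Larvae of CTRL JUN20 and CTRL OCT20 were the controls of each campaign. Each of the 4 groups held 5 libraries and each library was a pool of 10 larvae, so fewer cells of a type and less RNA per cell cannot be told apart.

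When an animal goes without food, insulin and IGF signals fall and FoxO transcription factors enter the nucleus, where they switch on genes for protein breakdown and fuel sparing. Glucocorticoids act in the same direction in muscle and liver. Larvae of this age still carry remains of yolk and are only beginning to feed. The sources used here do not say whether these pools were fed.

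The libraries ranged from 28.8 to 59.9 M counts in depth, where M stands for mega. Values are given as CPM, the counts per M counts of a library, after TMM scaling, in the order of replicates 1 to 5. Summed levels of the skeletal muscle markers, 23 of 23 symbols found and none at 0 in any library, ran from 97590 to 102945 CPM in SEC JUN20, from 100521 to 113141 CPM in CTRL JUN20, from 102603 to 109351 CPM in SEC OCT20 and from 102139 to 114585 CPM in CTRL OCT20. Liver markers, 14 of 14 found and none at 0, ran from 6419 to 9390 CPM over all libraries, and 6 of 7 markers of the exocrine pancreas were found, none at 0. The defining transcripts of the tissues in which most of these genes are known were thus present in every library. Since no source used here says that pools stem from separate spawns, p-values measure the spread between these pools, which may be technical.

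The secreted members, igfbp1a (ENSDARG00000099351) and igfbp1b (ENSDARG00000038666), encode insulin-like growth factor binding protein 1. The protein holds IGF away from its receptor and is made mostly in liver, where fasting raises it and insulin lowers it. In June igfbp1a stood at 118, 100.4, 95.9, 110.3 and 111 CPM in SEC JUN20, against 94.2, 72.4, 87.8, 92.8 and 79.9 CPM in CTRL JUN20. All 5 exposed libraries lay above all 5 controls, and both groups were narrow beside those of October. In October igfbp1a stood at 129.9, 162, 121, 209 and 243 CPM in SEC OCT20, against 147, 58.6, 134, 53.1 and 204 CPM in CTRL OCT20. The October controls ran from below every June library to above every June library, and the exposed pools overlapped only with their upper part.

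Its duplicate igfbp1b was at 92.1, 88.5, 88.8, 94.2 and 78.0 CPM in SEC JUN20, against 69.7, 52.1, 44.8, 78.3 and 53.9 CPM in CTRL JUN20. The June groups met only where the lowest exposed library, replicate 5, fell just under the highest control. In October igfbp1b was at 121, 163, 110.3, 192 and 164 CPM in SEC OCT20, against 139.7, 53.3, 99.4, 36.4 and 236 CPM in CTRL OCT20. Replicates 2 and 4 of the October controls were the low ones, and replicate 5 was the highest of all 20 libraries. In the order of group means, SEC OCT20 came first for igfbp1a with 173 ± 52.4 CPM, then CTRL OCT20 with 119 ± 63.7, SEC JUN20 with 107 ± 8.85 and CTRL JUN20 with 85.4 ± 9.19 CPM (SD, n = 5 each). The order was the same for igfbp1b, with 149.9 ± 33.7, 113 ± 80.0, 88.3 ± 6.24 and 59.8 ± 13.8 CPM (SD, n = 5 each). For both genes the neighbours SEC OCT20 and CTRL OCT20, and CTRL OCT20 and SEC JUN20, differed by less than the SD of CTRL OCT20.

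The ubiquitin ligase members act on muscle protein. The gene trim63a (ENSDARG00000028027) encodes the RING ligase MuRF1, which marks sarcomere proteins for the proteasome in mammals. It stood at 167, 123, 155, 147 and 212 CPM in SEC JUN20, against 165, 147, 135, 190.0 and 145 CPM in CTRL JUN20, with the June groups fully mixed. In October trim63a was at 157, 192, 139.5, 278 and 238 CPM in SEC OCT20, against 270.0, 89.2, 203, 83.2 and 309.5 CPM in CTRL OCT20. The lowest and the highest October value both belonged to controls.

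The gene fbxo32 (ENSDARG00000040277) encodes atrogin-1, the F-box subunit that brings muscle proteins to a ubiquitin ligase complex. It was at 99.7, 67.4, 90.8, 93.4 and 129.5 CPM in SEC JUN20, against 91.9, 73.1, 66.7, 109 and 93.8 CPM in CTRL JUN20. The October values of fbxo32 were 99.5, 127, 104, 162 and 154 CPM in SEC OCT20, against 165, 48.3, 123, 53.0 and 175 CPM in CTRL OCT20. June groups overlapped over nearly their whole range, and in October the 2 low controls lay below all other libraries of the series.

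Its neighbour on the chromosome, by the gene order of RefSeq's GRCz12tu annotation, is klhl38b (ENSDARG00000040278), a kelch-repeat gene of muscle whose role is little known. It was at 66.1, 46.7, 63.8, 57.4 and 80.4 CPM in SEC JUN20, against 55.2, 53.5, 46.4, 67.7 and 53.3 CPM in CTRL JUN20. In October it was at 56.5, 69.0, 51.6, 80.4 and 74.0 CPM in SEC OCT20, against 80.6, 19.6, 62.3, 24.2 and 85.4 CPM in CTRL OCT20. Replicates 2 and 4 of the October controls were again far below every other library. Deviations of fbxo32 and klhl38b from their group means had r = 0.99 over the 10 October libraries and r = 0.93 over the 10 June libraries. This is a description only, as both genes were read from the same libraries.

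The phosphatase regulator ppp1r27b (ENSDARG00000100504) encodes a small ankyrin-repeat protein that inhibits protein phosphatase 1 in mammals. It stood at 22.3, 13.7, 14.3, 16.1 and 19.4 CPM in SEC JUN20, against 25.6, 18.1, 18.3, 27.6 and 22.05 CPM in CTRL JUN20. The October values of ppp1r27b were 11.6, 17.1, 13.2, 26.2 and 18.3 CPM in SEC OCT20, against 41.9, 11.2, 27.7, 11.2 and 36.2 CPM in CTRL OCT20. Replicates 1 and 3 of the exposed October pools were almost as low as the low controls, replicates 2 and 4.

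The zinc-finger transcription factor gene klf9 (ENSDARG00000068194) is a known direct target of the glucocorticoid receptor. It was at 61.9, 46.3, 73.6, 59.6 and 119 CPM in SEC JUN20, against 105, 89.3, 120.1, 114 and 84.2 CPM in CTRL JUN20. Exposed June pools were lower than controls except replicate 5, which reached the upper end of the controls. In October klf9 was at 85.9, 96.6, 74.8, 98.0 and 124 CPM in SEC OCT20, against 109.7, 28.2, 86.5, 45.7 and 155 CPM in CTRL OCT20. Here the exposed pools lay inside the range of the controls.

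The gene pdk2b (ENSDARG00000059054) encodes a pyruvate dehydrogenase kinase, which slows the use of glucose carbon when fat is burnt. It stood at 511, 335, 389.7, 436 and 586 CPM in SEC JUN20, against 459, 412, 372, 449.9 and 395 CPM in CTRL JUN20. October values of pdk2b were 699.5, 668, 568, 1047 and 893 CPM in SEC OCT20, against 801, 215, 519, 283 and 661 CPM in CTRL OCT20. Only replicates 1 and 5 of the October controls reached into the range of the exposed pools. By group means, pdk2b was at 775 ± 192 CPM in SEC OCT20, 496 ± 248 in CTRL OCT20, 451 ± 99.2 in SEC JUN20 and 417 ± 36.6 CPM in CTRL JUN20 (SD, n = 5 each), of which the last 3 differed by less than the SD of CTRL OCT20.

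The remaining members serve protein and organelle turnover. The gene psme4a (ENSDARG00000087911) encodes the proteasome activator PA200, and it was at 173, 131, 147, 144 and 187 CPM in SEC JUN20, against 139.9, 131, 102, 156 and 141 CPM in CTRL JUN20. In October psme4a was at 170.4, 222, 174, 316 and 288 CPM in SEC OCT20, against 401, 132, 281, 143 and 417 CPM in CTRL OCT20. The 2 low controls were here no lower than June larvae, while the other 3 controls and the 2 highest exposed pools were far above every June library.

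The gene calcoco1b (ENSDARG00000016391) is a relative of human CALCOCO1, a receptor through which parts of the endoplasmic reticulum are taken up by autophagy. It was at 43.2, 33.3, 36.8, 31.3 and 52.5 CPM in SEC JUN20, against 34.6, 32.2, 27.9, 41.1 and 33.2 CPM in CTRL JUN20. October values of calcoco1b were 41.3, 49.3, 39.1, 75.2 and 66.3 CPM in SEC OCT20, against 90.7, 27.7, 72.5, 40.08 and 102 CPM in CTRL OCT20. The lowest October control, replicate 2, lay only just under the lowest June library, and most of the October spread lay above the June range. Exposed replicate 3 lay just under control replicate 4, and exposed replicate 1 just above it.

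**Figure D1:**
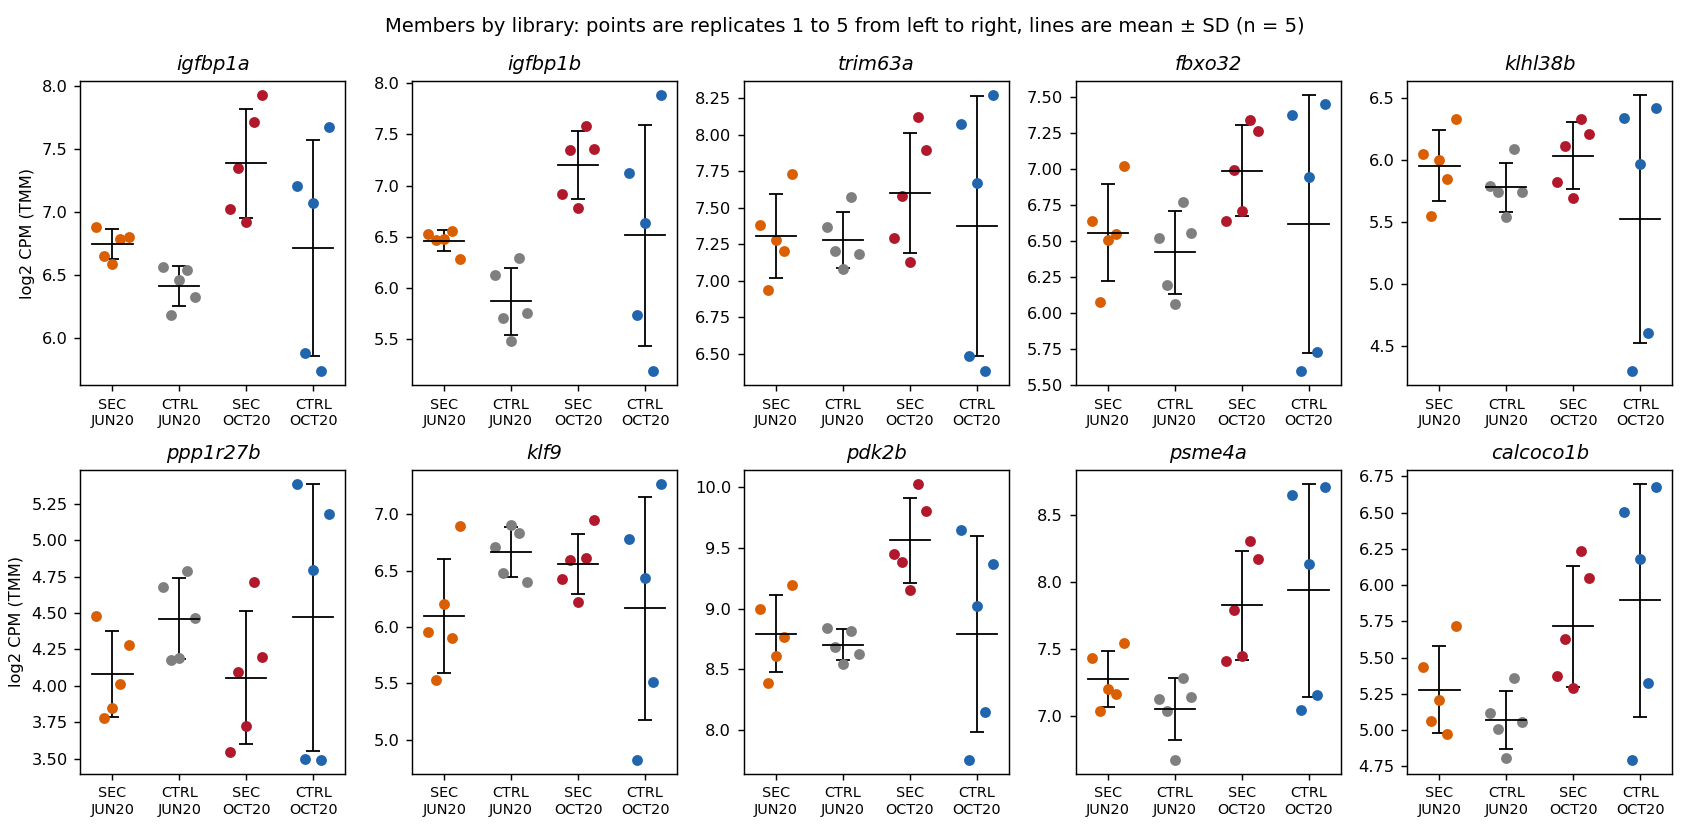
Level of each of the 10 genes as log2 CPM (y axis) in the 20 libraries by group (x axis), with points for replicates 1 to 5 from left to right and lines for the mean ± SD of 5 libraries. The CTRL OCT20 points fall into 3 high and 2 low libraries for every gene, and the June groups are narrow beside them.

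The same October pools were high or low for all members. Among the 5 CTRL OCT20 libraries, replicates 2 and 4 were the lowest pair for 10 of 10 members and replicates 1 and 5 the highest pair for 10 of 10. Among the SEC OCT20 libraries, replicates 4 and 5 were the highest pair for 10 of 10 members. Over all genes, replicates 2 and 4 were the lowest pair of CTRL OCT20 for 24.0%, and replicates 4 and 5 the highest pair of SEC OCT20 for 17.3%. As the members were picked for this variation, their counts are a description only. The mean log2 CPM over the members was 6.59, 6.89, 6.51, 7.30 and 7.18 in SEC OCT20, against 7.31, 5.59, 6.88, 5.73 and 7.49 in CTRL OCT20. In June it was 6.58, 6.15, 6.39, 6.38 and 6.78 in SEC JUN20, against 6.48, 6.24, 6.17, 6.63 and 6.32 in CTRL JUN20. The October controls thus held both the highest and the lowest library means of the series.

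Measured against the June libraries, the October pools went both ways. CTRL OCT20 replicates 2 and 4 each lay below all 10 June libraries for 8 members, the exceptions being psme4a and igfbp1b in replicate 2 and psme4a and calcoco1b in replicate 4. CTRL OCT20 replicate 5 lay above all June libraries for 10 members, replicate 1 for 9 and replicate 3 for 5, and SEC OCT20 replicates 4 and 5 for 8 each. The share of all genes outside the June range was not computed. These counts describe the October pools on which the members were picked and are not a finding about the members. Depth was 28.8 and 29.6 M counts in CTRL OCT20 replicates 2 and 4, and 35.9, 28.9 and 40.17 M counts in replicates 1, 3 and 5. Muscle marker sums were 102139 and 105844 CPM in CTRL OCT20 replicates 2 and 4, and 114585, 113907 and 109964 CPM in replicates 1, 3 and 5. In SEC OCT20 these sums did not part the pools alike. They were 109351 and 102603 CPM in replicates 4 and 5, and 108505, 107680 and 109126 CPM in replicates 1, 2 and 3. Liver marker sums were 9390 and 7127 CPM in CTRL OCT20 replicates 2 and 4, and 7756, 7761 and 7021 CPM in replicates 1, 3 and 5. Those of the exocrine pancreas were 4761 and 2672 CPM, and 5799, 4272 and 6256 CPM, in the same order. In neither October group did the liver or the pancreas sums part the pools as the members did. The part of depth and of these marker levels in the spread of the members was not tested.

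**Figure D2:**
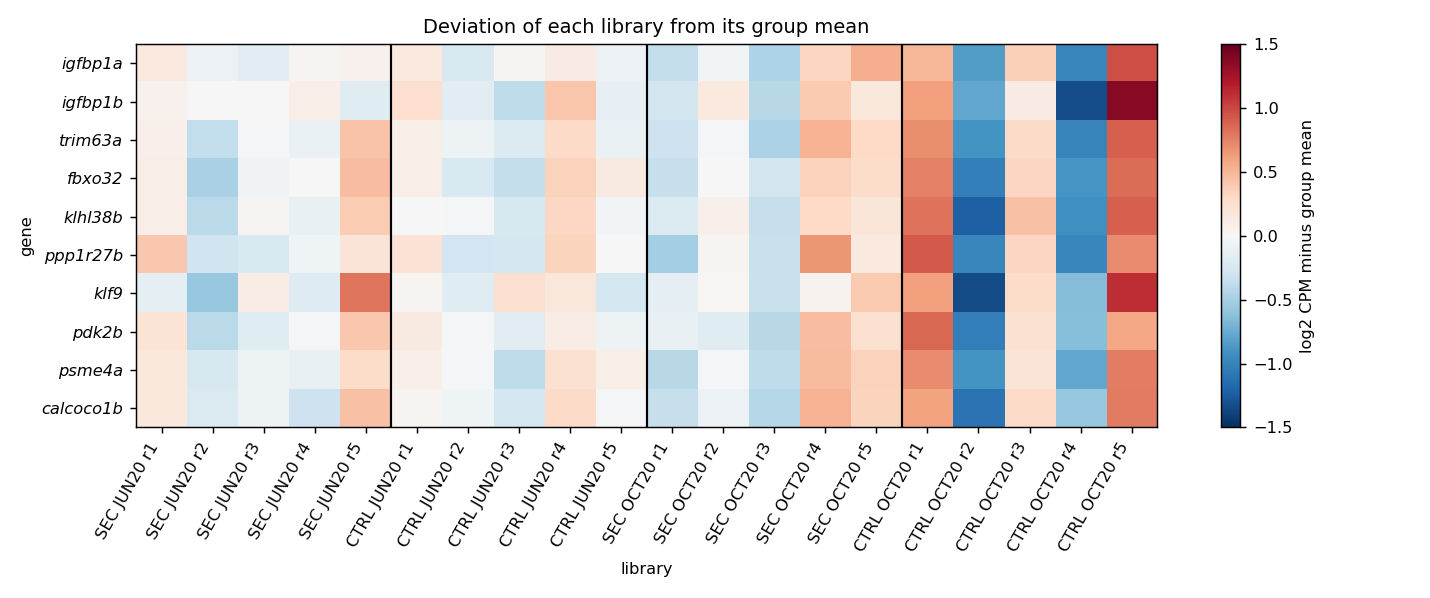
Deviation of each library (x axis, 5 per group, groups parted by black lines) from its group mean in log2 CPM for each of the 10 genes (y axis), red above and blue below. In CTRL OCT20 replicates 2 and 4 are blue and replicates 1, 3 and 5 red for every gene.

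In spread, the members stood at the far end of all genes in CTRL OCT20 and above most genes in SEC OCT20. The SD of log2 CPM over 5 libraries had a median over the members of 0.29 in SEC JUN20, 0.21 in CTRL JUN20, 0.38 in SEC OCT20 and 0.89 in CTRL OCT20. Over all 20076 genes with a mean of at least 1 CPM the medians were 0.11, 0.10, 0.12 and 0.16 in the same order. In CTRL OCT20 all 10 members lay above the 99th percentile of genes, and the highest library held 3.169 times (psme4a) to 6.49 times (igfbp1b) the level of the lowest. No member passed that percentile in any of the other 3 groups. The klf9 gene came nearest, at percentile 98.7 in SEC JUN20. The 95th percentile was passed by 5 members in SEC OCT20, 2 in SEC JUN20 and 1 in CTRL JUN20. In SEC OCT20 the members lay at percentiles 89.0 to 97.5. Both igfbp1 genes were at the low end of the members in SEC JUN20, igfbp1b at percentile 49.6 of all genes and igfbp1a at percentile 57.7. As the members were chosen for the spread between October pools, these values carry no test.

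**Figure D3:**
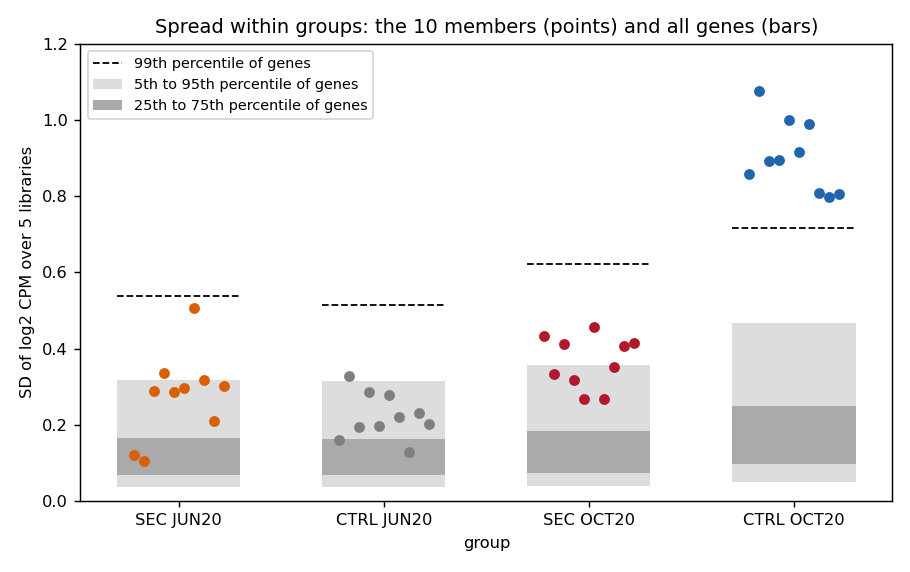
SD of log2 CPM over the 5 libraries of each group (y axis) for the 10 genes (points) and for all genes with a mean of at least 1 CPM (bars for percentiles, dashed line for the 99th). In CTRL OCT20 the 10 points lie between 0.80 and 1.08, above the dashed line, and in the other groups they lie below it.

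The members also moved together from library to library. Over the 10 October libraries the 45 pairs of members had a median Pearson r of 0.96 between deviations from group means, with 0.86 as the lowest. Over the 10 June libraries the median r was 0.73, and 29 of 45 pairs had r above 0.5. The muscle genes trim63a and klhl38b had the highest June value, r = 0.98, and igfbp1b and klf9 the lowest, r = -0.16. The duplicates igfbp1a and igfbp1b had r = 0.95 in October and r = 0.45 in June. In June igfbp1a, igfbp1b and klf9 had the lowest median r with the other members, 0.45, 0.35 and 0.62, against 0.76 to 0.86 for the other 7. In these correlations the genes of a library share its pool, depth and scaling. The members were chosen on variation within groups that had been computed over the June libraries as well as October. Neither campaign is thus independent of the choice.

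The comparison of each extract with its own controls asked whether effluent exposure moved these genes. In June 0 of 10 members passed the test, where 10.8% of all genes did, and their adjusted p ran from 0.337 to 0.955. The log2 fold changes, SEC JUN20 minus CTRL JUN20, were positive for 8 members and negative for ppp1r27b and klf9, with a median of 0.17 over the members and -0.0049 over all genes. The igfbp1b gene was at 0.56 ± 0.35 (adjusted p = 0.337) and igfbp1a at 0.33 ± 0.29 (adjusted p = 0.528) by edgeR's quasi-likelihood test over all 20 libraries. The klf9 gene was at -0.50 ± 0.34 (adjusted p = 0.384) and ppp1r27b at -0.38 ± 0.32 (adjusted p = 0.508). The 95% interval was -0.17 to 1.296 for igfbp1b and -1.21 to 0.20 for klf9. At an unadjusted p under 0.05 there was also no member, where 24.8% of all genes were, and DESeq2 called none.

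That fit takes one spread per gene from all 4 groups, and the spread of the members was set largely by the October controls. With the 10 June libraries alone in the fit, igfbp1a was at 0.33 ± 0.077 (adjusted p = 0.0119) and igfbp1b at 0.57 ± 0.15 (adjusted p = 0.0311), both called by edgeR among 15.9% of all genes. Neither was called in the fit of all 20 libraries, so both calls depend on which libraries set the spread. Leaving out each June library in turn, a check added after the data were seen, kept igfbp1a called in 10 of 10 fits, with changes from 0.28 to 0.37 and adjusted p from 0.0071 to 0.0318. The igfbp1b gene was called in 4 of 10 such fits, with changes from 0.48 to 0.68 and adjusted p up to 0.0671. The klf9 gene, at -0.50 ± 0.25 (adjusted p = 0.228) with all 10, was called in 1 of 10 fits, without SEC JUN20 replicate 5, at -0.76 (adjusted p = 0.0170). The groups of igfbp1a did not overlap in June, where 6.54% of all genes had every exposed library above every control.

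In October again 0 of 10 members passed the test over all 20 libraries, where 18.0% of all genes did. The log2 fold changes, SEC OCT20 minus CTRL OCT20, were positive for 7 members, with a median of 0.18 over the members and -0.014 over all genes. The largest was pdk2b at 0.64 ± 0.28 (adjusted p = 0.125), the only member with an unadjusted p under 0.05, where 29.7% of all genes had one, and DESeq2 called no member. The igfbp1a gene was at 0.53 ± 0.29 (adjusted p = 0.229) and ppp1r27b at -0.58 ± 0.32 (adjusted p = 0.242). The ligase genes trim63a and fbxo32 were at 0.071 ± 0.30 (adjusted p = 0.912) and 0.19 ± 0.30 (adjusted p = 0.731), with 95% intervals of -0.57 to 0.71 and -0.44 to 0.83. No member had October groups that did not overlap, against 11.1% of all genes. The members were picked for their spread between October pools, which makes overlap and a missed call likely in advance. Set beside all genes, these counts therefore do not show that exposure moved the members less. Single control libraries decided some of these calls. Without CTRL OCT20 replicate 1 pdk2b was at 0.88 (adjusted p = 0.0335 by edgeR), and without CTRL OCT20 replicate 5 igfbp1a was at 0.81 (adjusted p = 0.0490 by edgeR). Both replicates were high pools of all 10 members, so leaving 1 out lowers the control mean. That is the variation the members were picked for, and these fits support no call. With the October libraries alone in the fit no member was called, where 12.3% of all genes were. Leaving out each October library in turn from that fit also called pdk2b and igfbp1a in 0 of 10 fits, with adjusted p of at least 0.0849 for pdk2b and 0.153 for igfbp1a by edgeR.

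The October effect minus the June effect was called for 0 of 10 members, where 1.03% of all genes were. No member had an unadjusted p under 0.05 either, where 12.3% of all genes did, and DESeq2 called none. The widest differences were klf9 at 0.67 ± 0.48 (adjusted p = 0.630), pdk2b at 0.53 ± 0.39 (adjusted p = 0.647) and calcoco1b at -0.53 ± 0.40 (adjusted p = 0.668). The difference shares its libraries with both effects, and with them the October spread for which the members were picked.

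**Figure D4:**
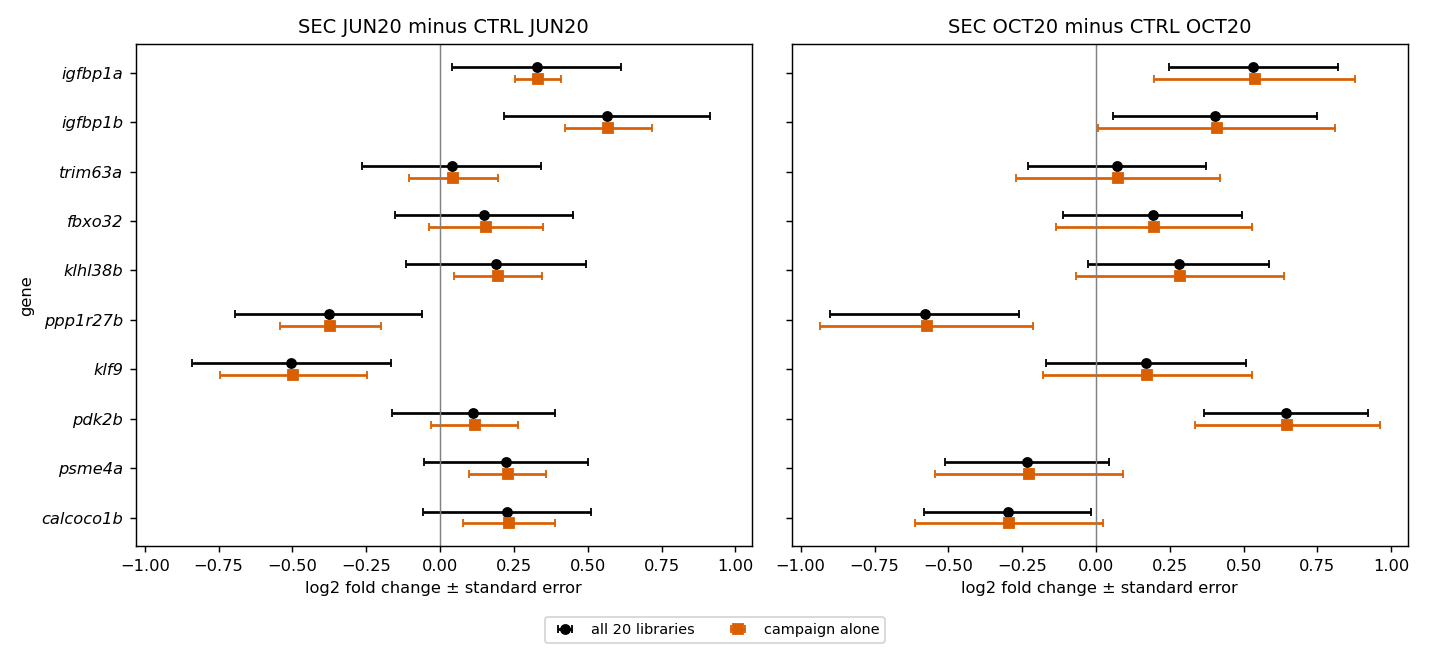
Log2 fold change of each of the 10 genes (y axis) with its standard error (x axis), SEC minus CTRL, in June (left) and October (right), from the fit of all 20 libraries (black circles) and of the campaign's 10 libraries (orange squares). In June the orange error bars are shorter than the black ones for all 10 genes, at nearly the same changes.

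Over the 10 October libraries the 23121 tested genes were searched for a gap of at least 3 times. Libraries of both groups had to lie on each side, with at least 50 counts in the first library above the gap. Such a gap was found for 4 genes. Of these si:dkey-269o24.1, si:ch1073-464p5.5 and zgc:194659, known only by clone or locus names, divided the libraries alike, while mucms1 placed SEC OCT20 replicate 5 on the other side. The count of mucms1 was 134 in that library, against 4 in SEC OCT20 replicate 4 and 18 to 23 in CTRL OCT20 replicates 1, 3 and 5, and at least 145 in the rest. The count of zgc:194659 was at most 10 in SEC OCT20 replicates 4 and 5 and CTRL OCT20 replicates 1, 3 and 5, and at least 148 in the other 5 October libraries. For si:ch1073-464p5.5 the same sets of libraries held at most 37 and at least 734 counts, and for si:dkey-269o24.1 at most 29 and at least 106. The zgc-low libraries, as they are called here, lay above the zgc-high libraries of their own group for 10 of 10 members in SEC OCT20 and for 10 of 10 in CTRL OCT20, where 17.3% and 24.0% of all genes did. As the members were picked for this variation, that is a description only. June libraries held 0.616 to 6.12 CPM of zgc:194659. These sets are not groups of the study, and what parts them was not tested.

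**Figure D5:**
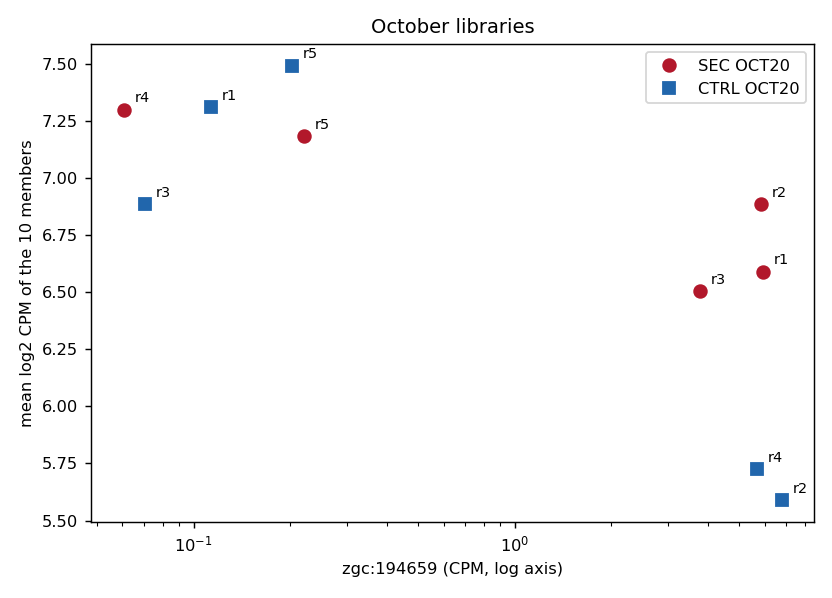
Mean log2 CPM over the 10 genes (y axis) against the level of zgc:194659 in CPM (x axis, log scale) in the 10 October libraries, circles for SEC OCT20 and squares for CTRL OCT20, with replicate numbers. The 5 libraries at 0.221 CPM or less have member means from 6.88 to 7.49, and the other 5 from 5.59 to 6.89. SEC OCT20 replicate 2, of the other 5, lies just above CTRL OCT20 replicate 3. Among the other 5 the 3 SEC OCT20 pools lie above the 2 CTRL OCT20 pools.

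Between campaigns, the exposed and the control groups were compared in turn, and day, spawn and campaign cannot be told apart there. In CTRL OCT20 minus CTRL JUN20, 1 of 10 members passed the test, where 5.80% of all genes did. That member, psme4a, averaged 275 ± 136 CPM in CTRL OCT20 and 134 ± 20.0 CPM in CTRL JUN20 (SD, n = 5 each), a log2 change of 1.04 ± 0.28 (adjusted p = 0.0371) by edgeR. The groups still overlapped, and the call was lost without any single CTRL JUN20 library and without CTRL OCT20 replicate 1, 3 or 5, with adjusted p from 0.0518 to 0.115. The call was also absent with the 10 control libraries alone in the fit (adjusted p = 0.0801 by edgeR, with 2.50% of all genes called). The calcoco1b gene came next at 0.98 ± 0.29 (adjusted p = 0.0510), then igfbp1b at 0.92 ± 0.35 (adjusted p = 0.125). Without CTRL OCT20 replicate 2, calcoco1b was at 1.18 (adjusted p = 0.0081), and without replicate 4 at 1.12 (adjusted p = 0.0277) with igfbp1b at 1.15 (adjusted p = 0.0286), all by edgeR. Both replicates were low pools of all 10 members, so leaving 1 out raises the control mean. That is the variation the members were picked for, and these fits support no call. Leaving out SEC OCT20 replicate 4 also brought calcoco1b under the threshold (adjusted p = 0.0492 by edgeR). The klhl38b gene was at -0.014 ± 0.31 and klf9 at -0.27 ± 0.34, the only 2 members with a negative value.

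In SEC OCT20 minus SEC JUN20, 0 of 10 members passed the test over all libraries, where 12.0% of all genes did, and all 10 members had positive values with a median of 0.44, against -0.0071 over all genes. The igfbp1a gene, at 0.69 ± 0.29 (adjusted p = 0.125), and igfbp1b, at 0.76 ± 0.35 (adjusted p = 0.160), had every October pool above every June pool, where 6.38% of all genes did. The pdk2b gene was at 0.78 ± 0.28 (adjusted p = 0.0752) by edgeR and was the 1 member that DESeq2 called. These 3 genes had an unadjusted p under 0.05, where 27.6% of all genes did. Without CTRL OCT20 replicate 2 pdk2b was at 0.78 (adjusted p = 0.0335 by edgeR). That library is outside this comparison and bears on it through the spread. With only the 10 exposed libraries in the fit, igfbp1a, igfbp1b and pdk2b were called, at 0.70 ± 0.19 (adjusted p = 0.0415), 0.77 ± 0.15 (adjusted p = 0.00861) and 0.78 ± 0.20 (adjusted p = 0.0336) by edgeR, where 15.8% of all genes were. The muscle genes klhl38b and ppp1r27b were at 0.075 ± 0.31 and 0.011 ± 0.32.

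Duplicates of the members showed how far the pattern reached within a family. The second MuRF1 gene trim63b was at 55.9, 54.6, 44.6, 65.2 and 56.3 CPM in SEC OCT20, against 79.3, 30.7, 65.9, 34.3 and 84.9 CPM in CTRL OCT20. It followed the high and low control pools, with r = 0.97 to the mean deviation of the members over October. The gene calcoco1a was at 88.0, 88.1, 90.3, 113 and 97.8 CPM in SEC OCT20, against 127, 78.6, 105, 70.3 and 126 CPM in CTRL OCT20, with r = 0.95, and pdk2a at 362, 336, 357, 436 and 415 CPM in SEC OCT20, against 346, 196, 317, 212 and 305 CPM in CTRL OCT20, with r = 0.92. For both, control replicates 2 and 4 were the lowest pair and exposed replicates 4 and 5 the highest pair, as for the members. The distance between high and low pools was smaller. For pdk2a control replicate 3 lay above replicate 5, unlike in the members. The second PA200 gene psme4b ran between 88.0 and 96.4 CPM in CTRL OCT20 and had r = 0.71. The weakly expressed klhl38a, at 1.21 to 2.74 CPM in CTRL OCT20, had r = 0.84. In SEC OCT20 klhl38a was at 1.89, 2.27, 2.10, 2.69 and 1.68 CPM, with replicate 5 lowest, unlike in the members. In the tests, pdk2a rose in October, at 0.47 ± 0.13 (adjusted p = 0.0179) by edgeR, and psme4b was higher in CTRL OCT20 than in CTRL JUN20, at 0.18 ± 0.038 (adjusted p = 0.00767). The others were called in none of the SEC against CTRL comparisons, and ppp1r27a was not found by symbol. The October call of pdk2a was lost with the October libraries alone in the fit (adjusted p = 0.0557 by edgeR).

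Lists of related genes are read against all genes, of which 5.92% were called higher and 4.90% lower with SEC in June, and 9.54% higher and 8.49% lower in October. Upstream of the members, the insulin and IGF axis was called for 6 of 32 genes in June, 1 higher and 5 lower with SEC, and for 6 of 32 in October, 2 higher and 4 lower. The list had a median log2 change of -0.04 in June and 0.01 in October. The gene igfals, whose protein carries IGF in blood, fell in both, at -0.63 ± 0.16 (adjusted p = 0.0137) in June and -1.37 ± 0.18 (adjusted p = 9.26e-06) in October. The stanniocalcin gene stc2a, whose product restrains IGF release from its binding proteins in mammals, fell at -0.35 ± 0.079 (adjusted p = 0.00641) and -0.48 ± 0.081 (adjusted p = 1.80e-04). The IGF2 clearance receptor igf2r rose at 0.21 ± 0.063 (adjusted p = 0.0349) and 0.27 ± 0.064 (adjusted p = 0.00481), and the phosphoinositide kinase subunit pik3r1 fell in June at -0.41 ± 0.082 (adjusted p = 0.00237). Of 7 FoxO genes, foxo3a fell in both campaigns, at -0.21 ± 0.046 (adjusted p = 0.00434) and -0.27 ± 0.046 (adjusted p = 2.38e-04), and no other was called. The gene foxo3b was at -0.14 ± 0.069 (adjusted p = 0.196) and -0.0053 ± 0.069 (adjusted p = 0.975).

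Other genes of muscle wasting were mostly not called. Of 21 tested, traf6, a ubiquitin ligase, rose in June at 0.22 ± 0.061 (adjusted p = 0.0195) and mstnb, a myostatin gene, fell at -0.33 ± 0.089 (adjusted p = 0.0200), while in October ubc, a polyubiquitin gene, fell at -0.29 ± 0.072 (adjusted p = 0.00622). The list's medians were -0.04 in June and -0.05 in October. Of 8 kelch and phosphatase-subunit relatives, 2 fell in June and 3 in October, and none rose. The glycogen-targeting subunit gene ppp1r3ca fell in both, at -0.38 ± 0.12 (adjusted p = 0.0463) and -0.70 ± 0.12 (adjusted p = 3.61e-04), ppp1r3cb in June at -0.26 ± 0.067 (adjusted p = 0.0147), and the muscle kelch genes klhl31 and klhl41b in October at -0.32 ± 0.10 (adjusted p = 0.0330) and -0.20 ± 0.064 (adjusted p = 0.0375). Their list medians were -0.20 and -0.19. The October calls of klhl31 and klhl41b were lost with the October libraries alone in the fit (adjusted p = 0.119 and 0.141 by edgeR), and the June call of ppp1r3ca was lost with scaling by library totals alone (adjusted p = 0.0708). That June call held in 13 of 27 alternatives, and 12 of the losses came from leaving out a library. Of 4 proteasome activators besides psme4a, psme2 rose in June at 0.51 ± 0.12 (adjusted p = 0.00603) and psme1 in both, at 0.44 ± 0.11 (adjusted p = 0.0126) and 0.36 ± 0.12 (adjusted p = 0.0366). The October call of psme1 was lost with the October libraries alone in the fit (adjusted p = 0.0607 by edgeR).

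Of 33 autophagy genes, optn rose in June at 0.36 ± 0.11 (adjusted p = 0.0442), and sqstm1 and nbr1b in October at 0.50 ± 0.15 (adjusted p = 0.0294) and 0.18 ± 0.051 (adjusted p = 0.0198). All 3 encode receptors that bring cargo to autophagosomes. The calls of sqstm1 and nbr1b were lost with the October libraries alone in the fit (adjusted p = 0.0994 and 0.0710 by edgeR), and that of optn was lost without a filter on low counts (adjusted p = 0.0541). The optn call held in 14 of 27 alternatives, and 11 of the losses came from leaving out a library. The list's medians were 0.03 in June and 0.02 in October. Among 12 genes of pyruvate dehydrogenase and its regulators, 2 rose and 1 fell in June, and 4 rose and 2 fell in October, with medians of 0.06 and 0.10. The kinase genes pdk3a, pdk4 and pdk1 rose in October at 0.26 ± 0.059 (adjusted p = 0.00310), 0.45 ± 0.10 (adjusted p = 0.00356) and 0.25 ± 0.057 (adjusted p = 0.00390), beside pdk2a. The opposing phosphatase gene pdp1 fell in both, at -0.26 ± 0.072 (adjusted p = 0.0207) and -0.27 ± 0.073 (adjusted p = 0.0119). These kinases act on the same enzyme as the product of pdk2b.

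In the liver list, 3 of 20 genes rose in June and none fell, and in October 8 rose and 3 fell, with medians of 0.13 and 0.11. The coactivator gene ppargc1b rose at 0.18 ± 0.047 (adjusted p = 0.0140) and 0.49 ± 0.048 (adjusted p = 1.47e-07). The carnitine transferase gene cpt1ab rose at 0.35 ± 0.091 (adjusted p = 0.0153) and 0.78 ± 0.092 (adjusted p = 3.26e-06). The lipase inhibitor gene angptl4 rose in October at 0.71 ± 0.083 (adjusted p = 2.37e-06). The gluconeogenic gene pck1 was at 897, 941, 715, 1048 and 1001 CPM in SEC OCT20, against 687, 359, 524, 351 and 850.2 CPM in CTRL OCT20. It rose in October at 0.73 ± 0.20 (adjusted p = 0.0152) and also followed the member pattern, with r = 0.96 over October, whereas ppargc1b had r = -0.058. Over the list, 6 of 20 genes had r above 0.8 over October and 4 over June.

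Among 18 glucocorticoid-responsive genes, 3 fell and none rose in June, and 8 rose and none fell in October, with medians of -0.10 and 0.29. The June calls numbered 1 with RLE factors, 0 with library totals alone or without a filter and 5 with DESeq2, and the October calls 8 or 9 under every alternative run. The clock gene per1a was at 37.6, 35.8, 27.2, 30.8 and 31.5 CPM in SEC OCT20, against 11.6, 11.7, 9.43, 10.8 and 13.4 CPM in CTRL OCT20. In June per1a was at 32.9, 25.3, 29.6, 25.8 and 34.1 CPM in SEC JUN20, against 34.9, 33.0, 43.9, 39.2 and 34.6 CPM in CTRL JUN20. The exposed October pools thus lay within the June range, and the October controls lay below every June library. By edgeR per1a was higher with SEC in October at 1.51 ± 0.11 (adjusted p = 4.25e-09) and lower in June at -0.33 ± 0.10 (adjusted p = 0.0469). It did not follow the high and low control pools (r = 0.15 over October). The June call of per1a was lost with RLE factors (adjusted p = 0.0506 by edgeR), with library totals alone, without a filter and with the June libraries alone, while its October call held under every alternative run. The June call held in 10 of 27 alternatives, and 13 of the losses came from leaving out a library. The genes per1b, hsd20b2, an enzyme of cortisol breakdown, and klf11b rose in October at 0.50 ± 0.051 (adjusted p = 3.41e-07), 0.61 ± 0.077 (adjusted p = 4.84e-06) and 0.64 ± 0.096 (adjusted p = 6.00e-05). The receptor co-chaperone gene fkbp5, a classical glucocorticoid target, was at -0.78 ± 0.27 (adjusted p = 0.0753) in June and 0.34 ± 0.27 (adjusted p = 0.453) in October by edgeR, and DESeq2 called it in June (adjusted p = 0.0487). Of 16 genes of mTOR and energy stress, 2 fell in June, and 4 rose and 2 fell in October, with medians of 0.03 and 0.02. The stress sestrin gene sesn2 rose in October at 0.67 ± 0.15 (adjusted p = 0.00268) and sesn3 fell in both, at -0.29 ± 0.049 (adjusted p = 5.29e-04) and -0.19 ± 0.050 (adjusted p = 0.00831). The mTOR inhibitor gene deptor rose in October at 0.20 ± 0.038 (adjusted p = 5.03e-04), and the kinase gene eef2k fell in June at -0.21 ± 0.057 (adjusted p = 0.0209).

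Genes outside the members that moved most like them were ranked by the correlation of their deviations with the mean deviation of the members. Only genes with a mean of at least 1 CPM and without clone or locus names were ranked. Over all 20 libraries the 8 highest of these were sdad1 (r = 0.99), gtpbp4, retreg1, trim55b, arg2, pcmtd1, chac1 and prodha (r = 0.97). Both sdad1 and gtpbp4 serve the making of ribosomes, retreg1 is a receptor for autophagy of the endoplasmic reticulum, trim55b is the ligase MuRF2, arg2 and prodha break down arginine and proline, and chac1 breaks down glutathione. The retreg1 gene was at 26.2, 34.6, 22.7, 45.5 and 45.1 CPM in SEC OCT20, against 45.0, 14.51, 32.6, 16.5 and 50.5 CPM in CTRL OCT20. In June retreg1 was at 25.6, 19.4, 22.9, 21.5 and 31.0 CPM in SEC JUN20, against 20.0, 20.7, 16.9, 28.2 and 21.0 CPM in CTRL JUN20. Its high and low October pools were those of the members. The trim55b gene was at 20.8, 22.02, 21.2, 30.2 and 25.7 CPM in SEC OCT20, against 33.4, 15.8, 25.7, 15.1 and 33.8 CPM in CTRL OCT20, again with replicates 2 and 4 of the controls lowest.

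Over the 10 June libraries alone the 8 highest of the ranked genes were prodha (r = 0.97), tob1b, ghrb, lpin1, zfand5b, fyco1a, ralgapa1 and tcp11l2 (r = 0.94). The growth hormone receptor gene ghrb and the lipin gene lpin1, a phosphatidate phosphatase, had October values of r = 0.94 and 0.98. The prodha gene was at 58.2, 45.2, 53.9, 53.0 and 62.0 CPM in SEC JUN20, against 55.7, 51.2, 49.6, 59.3 and 50.9 CPM in CTRL JUN20. It was the only gene on both lists. Over October 11.7% of the 20076 genes had r above 0.8 and 13.9% had r below -0.8, and over June 1.32% and 2.04% did.

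By list, 23 of 33 autophagy genes had r above 0.8 over October and 4 over June, with median r of 0.92 and 0.58. Of 21 muscle wasting genes 10 passed 0.8 in October and 3 in June, and 2 lay below -0.8 in October. Of 18 glucocorticoid-responsive genes 9 passed 0.8 in October and 0 in June. Of 32 IGF axis genes 9 passed 0.8 in October and 4 lay below -0.8. These October counts were 2 and 2 of 12 for pyruvate dehydrogenase, 6 and 1 of 16 for mTOR and 3 and 0 of 7 for FoxO. Of 4 proteasome activators 0 passed 0.8 and 1 lay below -0.8, with a median r of -0.59. Among the kelch and phosphatase relatives 2 of 8 passed 0.8 and 4 of 8 lay below -0.8. The muscle kelch gene klhl40b, named after its values were seen, ran opposite to the members, at 2.96, 2.43, 2.94, 1.82 and 2.17 CPM in SEC OCT20, against 2.37, 5.32, 3.20, 5.16 and 2.23 CPM in CTRL OCT20 (r = -0.99 over October, -0.87 over June). Its highest libraries were the 2 control pools in which the members were lowest. The neighbour of igfbp1a in the RefSeq gene order, igfbp3, also named after its values were seen, was at 16.9, 16.1, 17.5, 15.0 and 15.7 CPM in SEC OCT20, against 14.9, 21.5, 17.3, 18.6 and 14.6 CPM in CTRL OCT20 (r = -0.95). These lists were described beside all genes and not tested, and the October pools that set them were those used to choose the members.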

How the data were processed

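Transcripts were counted in 20 pools of whole larvae, and the deposited values are raw counts per gene, whole numbers of 28.8 to 59.9 M per library. Libraries were stranded and carried molecular identifiers per the labels' protocols. The authors aligned reads with STAR 2.7.8a to GRCz11, with CASAVA, SAMtools and DESeq2 also named, per the submitters' processing notes. The sources used here name no counting tool or annotation and do not say whether identifiers were merged. Reads of duplicated genes such as igfbp1a and igfbp1b could have been split in ways that are not known. The single-library files equalled the series table for 20 of 20 libraries.

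Genes were kept with edgeR's filterByExpr at a minimum count of 10, and 23121 of 32520 were tested with edgeR 4.0.16 in R 4.3.3 (TMM scaling, quasi-likelihood F test, robust, 4 group means over 20 libraries). P-values are two-sided, adjusted by Benjamini-Hochberg over all tested genes and called under 0.05. Values after ± are standard errors for log2 fold changes and SD for levels. Deviations use log2 CPM with a prior count of 2. The test was tried on simulated counts with known changes. Alternatives were DESeq2 1.42.0, RLE factors or library totals alone, no filter, a stricter filter, the compared groups alone, the replicate number as a block, each library left out, the October division and a prior count of 0.5.

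The members and gene lists were chosen with earlier results of these data known. Of each list, up to 4 genes with the smallest adjusted p in either SEC against CTRL comparison are named, with duplicates of the members, fkbp5, pck1 and foxo3b. A result of the liver list is not reported here. The 8 genes most like the members were taken among named genes with a mean of at least 1 CPM. No sequence was used, so promoter motifs were not searched. Neighbouring genes are from RefSeq's GRCz12tu table, which is not the build of the files.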

Additional observations from a re-analysis of the deposited data

Results flagged for a closer look

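The October effect minus the June effect was called by edgeR's quasi-likelihood test for 5 named genes outside the members, of the lists of glucocorticoid-responsive and liver fasting genes, and for none of the members. The difference was 1.84 ± 0.15 for per1a (adjusted p = 2.69e-06), with a log2 change of 1.51 in October and -0.33 in June. The SEC OCT20 pools of per1a lay within the June range, and the CTRL OCT20 pools lay below it. For per1b the difference was 0.65 ± 0.072 (adjusted p = 3.42e-05), with 0.50 in October and -0.15 in June. For hsd20b2 it was 0.47 ± 0.11 (adjusted p = 0.0353), with 0.61 in October and 0.14 in June. For angptl4 it was 0.50 ± 0.12 (adjusted p = 0.0390), with 0.71 in October and 0.21 in June. For ppargc1b it was 0.30 ± 0.067 (adjusted p = 0.0282), with 0.49 in October and 0.18 in June.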

How the results depend on the processing

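Of the values for single members under an alternative, 1264 kept their direction and their side of the threshold, 10 lost a call, 18 gained one and 38 turned direction. The cause was not tested. The count of called members, 0 in SEC JUN20 minus CTRL JUN20, was 2 with the compared groups alone. For SEC OCT20 minus CTRL OCT20 it was 0, against 0 to 1 with each library left out and 2 with the October division by zgc:194659 as a covariate. Within each October group that division parts the high from the low pools of all 10 members, the variation they were picked for. The fit with it thus supports no call. For CTRL OCT20 minus CTRL JUN20 it was 1, against 2 with DESeq2, RLE factors or the stricter filter, 0 without a filter or with the compared groups alone, and 0 to 3 with each library left out. For SEC OCT20 minus SEC JUN20 it was 0, against 1 with DESeq2, 3 with the compared groups alone and 0 to 1 with each library left out. Without a filter psme4a in CTRL OCT20 minus CTRL JUN20 had adjusted p = 0.0564 by edgeR.

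The median SD of the members ran from 0.31 to 0.43 in SEC OCT20 and from 0.81 to 1.01 in CTRL OCT20 with each library left out, with CTRL OCT20 replicate 3 giving the highest. Scaling by library totals alone turned trim63a in the difference of effects to -0.0066 and ppp1r27b in SEC OCT20 minus SEC JUN20 to -0.047. The October covariate turned psme4a to 0.089 and calcoco1b to 0.0015 in SEC OCT20 minus CTRL OCT20. Libraries left out in turn gave log2 ranges across 0 for the following. In SEC JUN20 minus CTRL JUN20 trim63a ran from -0.081 to 0.12. In SEC OCT20 minus CTRL OCT20 trim63a ran from -0.12 to 0.31 and klf9 from -0.047 to 0.50. In the difference of effects igfbp1b ran from -0.39 to 0.30, trim63a from -0.16 to 0.27, fbxo32 from -0.15 to 0.26, klhl38b from -0.12 to 0.31 and ppp1r27b from -0.40 to 0.043. In CTRL OCT20 minus CTRL JUN20 klhl38b ran from -0.24 to 0.20 and ppp1r27b from -0.033 to 0.41. In SEC OCT20 minus SEC JUN20 klhl38b ran from -0.014 to 0.18 and ppp1r27b from -0.19 to 0.12.

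For the gene lists, recomputed under the same alternatives as a choice made after the data were seen, counts of called genes in SEC JUN20 minus CTRL JUN20 moved as follows. With the June libraries alone they were 5 of muscle wasting, 4 of kelch and phosphatase relatives, 6 of autophagy, 5 of liver and 4 of mTOR. With DESeq2 they were 2 of autophagy, 5 of liver and 5 of glucocorticoid response. With library totals alone they were 1 of kelch, 3 of autophagy, 5 of liver and 0 of glucocorticoid response. RLE factors gave 1 of glucocorticoid response, and no filter gave 1 of kelch, 0 of autophagy and 0 of glucocorticoid response. The replicate block gave 0 of autophagy, 1 of pyruvate dehydrogenase and 1 of mTOR. With each library left out the counts ran from 1 to 3 for muscle wasting, kelch and mTOR, from 0 to 2 for autophagy, from 0 to 4 for pyruvate dehydrogenase and glucocorticoid response, and from 3 to 5 for liver.

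In SEC OCT20 minus CTRL OCT20 the October libraries alone gave 3 of IGF axis, 1 of kelch, 0 of proteasome activators, 0 of autophagy and 3 of mTOR. The replicate block gave 3 of IGF axis, 2 of FoxO, 1 of kelch and 0 of proteasome activators. The October covariate gave 3 of FoxO, 3 of muscle wasting and 7 of autophagy. DESeq2 gave 2 of FoxO and 2 of muscle wasting, RLE factors and the stricter filter 2 of FoxO, and library totals alone 2 of muscle wasting. With each library left out the counts ran from 3 to 7 for IGF axis, from 1 to 2 for FoxO, from 1 to 3 for muscle wasting, from 1 to 4 for kelch, from 0 to 1 for proteasome activators, from 0 to 4 for autophagy and from 3 to 6 for mTOR. Of 49 called values of the leading genes of these lists and of duplicates of the members, 33 kept the call under every alternative run. Under the replicate block the June calls of igf2r, optn, pdk3a, ppargc1b and eef2k and the October calls of klhl31, klhl41b and psme1 were lost, with adjusted p from 0.0509 to 0.114 by edgeR. The foxo3b change in October turned to 0.0015 under the block and 0.045 with the covariate, and ran from -0.052 to 0.038 with each library left out. The causes were not tested.

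Replicate numbers were not taken as pairs in the main fit. Libraries of the same number had correlations of their deviations from -0.09 to -0.01 in June and from -0.46 to 0.28 in October. Without correlations of unlike numbers beside them, these values do not show whether the numbers paired the samples. With the replicate number as a block 0 members were called in both SEC against CTRL comparisons and in their difference, and igfbp1b in the difference turned to 0.054. The block could not be used between campaigns. With 5 pools a group, an uncalled member is not shown to be unchanged.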
